A study of Mus musculus with 3 samples.

Results

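Assembled loci without a reference gene were examined in normal mouse liver. A locus here is a group of overlapping assembled transcripts, and its rows in the deposited tables are events of transcript structure. An event is a first or last exon, an exon that can be skipped, an intron that can be retained or an exon with alternative ends, and it carries a position, a strand and an FPKM, a fragment number scaled by the length of the transcript and the size of the library. The loci were chosen as all rows in which the field for the reference gene was empty, after identical rows had been dropped, with no use of the measured level. This gave 902, 919 and 796 events in replicates 1, 2 and 3, out of 71716, 74243 and 74236 events in all, which is 1.26, 1.24 and 1.07% of each library. Over the libraries they fell on 1511 distinct positions in 484 loci, whereas the events with a reference gene fell on 88332 positions in 12851 loci. The 3 libraries are RNA sequencing of liver from wild-type, healthy C57BL/6 mice (an inbred laboratory strain) labelled male, with no treatment given in the labels, and they form 1 group. The series is about driver genes of hepatocellular carcinoma, a liver cancer, and its tumours were not analysed here. Whether each replicate is a separate animal is not given in the labels, and the spread between replicates may therefore be technical.

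Of the hepatocyte genes set against the label of liver, albumin (Alb) had its highest listed event at 25367, 30592 and 27018 FPKM in replicates 1, 2 and 3, and Apoa1, Ttr and Cps1 were at 184 FPKM or more in every library. Serpina1a, one of several near-identical copies, was not listed under its own identifier. The data went against the label of male. Xist, the RNA by which female cells silence 1 of their X chromosomes, reached 65.7, 53.9 and 46.4 FPKM on its own strand in the 3 libraries, and 0 events lay within Eif2s3y, Ddx3y, Kdm5d and Uty, which are on the Y chromosome. Outside these genes, the locus XLOC_073570 on chromosome Y (90738977 to 90739352, plus strand) had 2.50, 0 and 1.85 FPKM. The pattern of Xist and these Y-linked genes held for all 3 libraries, so no value could be given without those concerned.

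Transcript assembly joins spliced reads into transcripts and then compares them with known genes, so a locus left without a gene can be a noncoding RNA, an unknown end or stretch of a known gene, a copy of a gene on another assembled sequence, or the product of misplaced reads. Many long noncoding RNAs are spliced, present at low levels and poorly shared between annotations. Promoters rich in CpG, the dinucleotide that is depleted elsewhere in mammalian genomes, often start another RNA in the opposite direction, known as divergent transcription.

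The first exons of 6 loci are given in the 300-base window that RefSeq's GRCm38.p6 promoter table gives around a gene's start (250 bases before it to 50 after it). These were picked with their values known, 4 because their first exon lay on the strand of a RefSeq gene at its start and 2 because it lay opposite to one. Each is printed along the strand of the RefSeq gene, and capitals mark the bases that fall in the assembled first exon.
XLOC_032017 with Gm36419, chr19:32543097-32543396, plus strand: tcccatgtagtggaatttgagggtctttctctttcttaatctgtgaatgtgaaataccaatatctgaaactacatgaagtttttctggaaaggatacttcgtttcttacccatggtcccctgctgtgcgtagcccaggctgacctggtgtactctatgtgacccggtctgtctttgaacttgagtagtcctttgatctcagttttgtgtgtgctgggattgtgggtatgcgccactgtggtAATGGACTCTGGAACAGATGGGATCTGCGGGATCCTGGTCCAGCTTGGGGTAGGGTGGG
XLOC_043427 with Gm12909, chr4:62088033-62088332, plus strand: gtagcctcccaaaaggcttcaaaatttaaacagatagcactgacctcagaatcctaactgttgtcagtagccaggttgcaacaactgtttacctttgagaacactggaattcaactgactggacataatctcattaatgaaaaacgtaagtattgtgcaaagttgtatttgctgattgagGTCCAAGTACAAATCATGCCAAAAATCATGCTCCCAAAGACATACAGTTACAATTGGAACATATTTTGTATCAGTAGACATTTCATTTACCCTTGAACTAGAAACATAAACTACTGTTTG
XLOC_034201 with Gm39794, chr2:35063260-35063559, plus strand: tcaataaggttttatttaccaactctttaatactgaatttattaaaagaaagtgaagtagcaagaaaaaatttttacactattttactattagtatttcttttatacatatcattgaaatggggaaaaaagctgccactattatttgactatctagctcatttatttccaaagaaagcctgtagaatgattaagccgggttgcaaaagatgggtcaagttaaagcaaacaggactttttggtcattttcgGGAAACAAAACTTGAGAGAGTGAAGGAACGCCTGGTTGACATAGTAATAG
XLOC_053333 with Gm30784, chr6:141866106-141866405, plus strand: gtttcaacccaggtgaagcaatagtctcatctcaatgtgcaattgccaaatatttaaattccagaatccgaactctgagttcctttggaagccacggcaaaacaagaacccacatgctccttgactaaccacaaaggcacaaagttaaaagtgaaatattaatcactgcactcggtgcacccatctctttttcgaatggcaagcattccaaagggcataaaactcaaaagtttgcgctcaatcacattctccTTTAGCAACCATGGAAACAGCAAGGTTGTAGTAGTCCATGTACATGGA
XLOC_034733 opposite to Slc39a13, chr2:91070266-91070565, minus strand: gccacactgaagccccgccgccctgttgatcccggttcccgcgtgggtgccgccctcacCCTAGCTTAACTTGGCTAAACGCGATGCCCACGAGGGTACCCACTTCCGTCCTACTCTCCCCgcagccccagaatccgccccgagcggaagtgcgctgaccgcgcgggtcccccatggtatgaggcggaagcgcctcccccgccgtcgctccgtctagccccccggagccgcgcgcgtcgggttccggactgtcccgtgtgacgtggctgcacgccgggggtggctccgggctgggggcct
XLOC_070868 opposite to Zrsr2, chrX:163958617-163958916, minus strand: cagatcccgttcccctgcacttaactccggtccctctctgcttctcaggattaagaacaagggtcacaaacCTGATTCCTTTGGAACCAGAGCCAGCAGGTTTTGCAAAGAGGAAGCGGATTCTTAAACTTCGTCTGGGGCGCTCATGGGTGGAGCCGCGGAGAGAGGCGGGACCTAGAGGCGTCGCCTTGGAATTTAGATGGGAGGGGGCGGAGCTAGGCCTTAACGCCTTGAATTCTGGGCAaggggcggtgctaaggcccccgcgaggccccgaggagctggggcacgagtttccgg
In the 4 windows of the same strand the capitals run to the end of the window, and in the 2 opposite windows they stop short of it, since the assembled exon is transcribed towards the left of the printed sequence. The first exon of XLOC_032017 began 9 bases before the RefSeq start of Gm36419 and that of XLOC_053333 began 2 bases after the start of Gm30784, while XLOC_034201 began at the very base given for Gm39794. The window of Slc39a13, a zinc transporter gene, holds 36 CG dinucleotides and that of Zrsr2, a gene for a splicing factor of minor introns, holds 18. The windows of Gm36419, Gm12909, Gm39794 and Gm30784 hold 5, 1, 3 and 5.

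The most abundant loci present in every library lay mostly on assembly patches, which are corrected or alternative stretches of a chromosome that GRCm38 carries as separate sequences. An exactly matched event in all 3 libraries was found for 117 loci, and 10 of the 15 with the highest mean locus FPKM were on patches. Locus FPKM is the largest of the summed first exons, the summed last exons and the highest other event. The 22 patches with listed loci held 69 loci, 4 more were on unplaced scaffolds and 411 were on chromosomes. Every listed event on a patch lacked a reference gene. Outside XLOC_069207, described below, patches held 54.0, 49.9 and 54.6% of the summed FPKM of all events without a reference gene in replicates 1, 2 and 3.

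**Figure D1:**
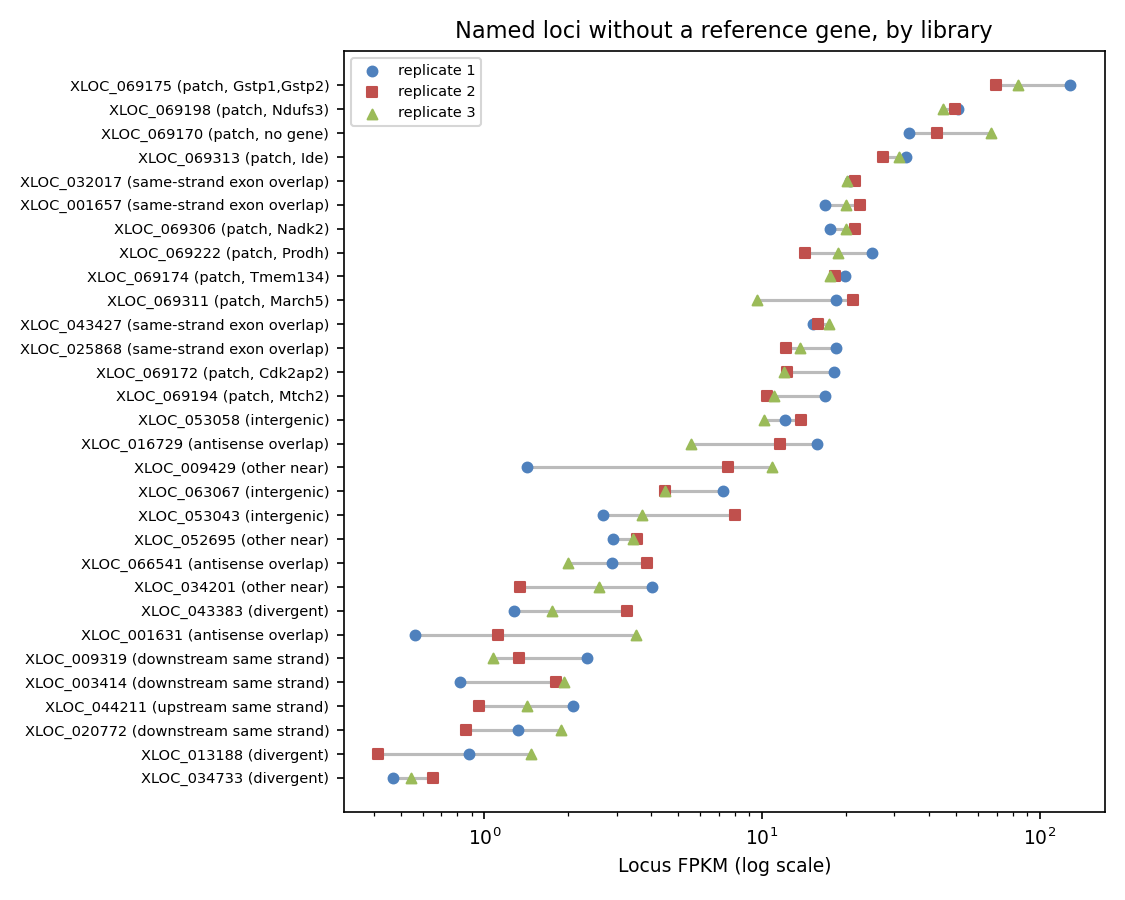
Locus FPKM (x axis, log scale) of the loci named by rank, overall and within each position class, 1 row per locus and 1 point per library; grey lines join the lowest and highest library. The top rows are patch loci, led by XLOC_069175 at 69.4 to 129 FPKM, and the libraries differ most in rows such as XLOC_009429, from 1.42 to 10.9 FPKM.

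XLOC_069175 had the highest mean of these, with 129, 69.4 and 83.3 FPKM in replicates 1, 2 and 3. Its splice sites are those of Gstp1 and Gstp2, pi-class glutathione transferases that conjugate reactive compounds in liver. On the same patch, XLOC_069176 had splice sites of their relative Gstp3 and 12.9, 6.11 and 6.48 FPKM. XLOC_069198, with the splice sites of Ndufs3, a subunit of respiratory complex I, had 50.7, 49.5 and 44.7 FPKM, close together in the 3 libraries. XLOC_069170 had 33.7, 42.7 and 66.9 FPKM and lay beside the Gstp loci, and none of its 20 exon ends matched one on chromosome 19 within 1000 bases of the placement of its patch. XLOC_069313 matched the insulin-degrading enzyme gene Ide and had 33.1, 27.3 and 31.2 FPKM. The mitochondrial NAD kinase gene Nadk2 was matched by XLOC_069306 at 17.6, 21.6 and 20.03 FPKM, and the proline dehydrogenase gene Prodh by XLOC_069222 at 24.8, 14.3 and 18.8 FPKM, highest in replicate 1.

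The genes behind the patches were found by position. Exon ends of a patch were compared with those of GENCODE M21 on every chromosome, and a patch was placed where at least 4 coincided at 1 shift and at least 2 times as many as on the next chromosome. This placed 13 of the 22 patches, with 55 of the 69 loci. To name a gene, each locus was then shifted on its own, within 1000 bases of the placement of its patch. At least 2 of its exon ends had to coincide, and 44 of these loci could be given a gene. Ndufs3, Mtch2 and Ide were each named from 2 exon ends. Rian was named at a shift of -508 bases on a patch placed at 43. The patch with the most loci, 10, was of chromosome 19, with Sf1, Men1, Ehd1, Atg2a, Map4k2, Rasgrp2 and Cdc42bpg among its genes. Another patch of chromosome 19 held the Gstp genes, Cdk2ap2 and Tmem134. A patch of chromosome 2 held Ndufs3, Mtch2, Celf1, Ptpmt1 and Kbtbd4, and a patch of chromosome 16 held Prodh, Dgcr6, Tango2, Trmt2a and Zdhhc8. A patch of chromosome 12 held Meg3 and Rian, imprinted noncoding RNAs, with 2.47, 5.90 and 0.715 FPKM for the Meg3 locus and 0, 1.70 and 0.559 FPKM for the Rian locus.

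The same exon end was often listed on the patch, without a gene, and on the chromosome, with its gene. Of 95 first or last exons on patches whose splice site was annotated at the shift of their locus, 63 had the chromosome copy listed in at least 1 library. Copies were paired by this splice site alone, and values were summed over differing outer ends. With the same start and end required, 41 of 253 event positions on placed patches had a listed chromosome copy. Only 2 of these were first or last exons. Of the 95 exons paired by splice site alone, both copies were listed for 45, 50 and 48 in replicates 1, 2 and 3. Their median log2 ratio of patch to chromosome was 0.15, 0.38 and 0.18. The 2 copies were within 2-fold of each other for 34, 36 and 35 of these, and the patch copy was higher for 31, 38 and 33. The first exon of Gstp1 had 106, 57.0 and 83.3 FPKM on the patch and 101, 46.3 and 74.2 FPKM on chromosome 19. The last exon of Celf1, an RNA-binding regulator of splicing and decay, had 3.41, 4.94 and 4.97 FPKM on the patch and 3.52, 5.22 and 5.01 FPKM on chromosome 2. On both copies replicate 2 was the lowest library for Gstp1 and replicate 1 the lowest for Celf1.

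Some exons were higher on the same copy in every library. The last exon of Ndufs3 had 50.7, 49.5 and 44.7 FPKM on the patch and 22.7, 16.4 and 9.64 FPKM on chromosome 2. The splice site of its first exon was listed on the patch only. The first exon of Mtch2, a mitochondrial outer membrane carrier, had 16.8, 10.4 and 11.1 FPKM on the patch and 0.038, 0.038 and 0.028 FPKM on chromosome 2. The first exon of Dgcr6 was higher on the chromosome, by less than 2-fold, with 11.1, 7.34 and 6.40 FPKM on the patch and 18.6, 11.4 and 12.2 FPKM on chromosome 16. The last exon of Dgcr6 went the other way, with 11.1, 7.34 and 6.40 FPKM on the patch and its splice site not listed on chromosome 16. The copies share sequence, so how reads were divided between them cannot be told apart from transcription of either one.

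**Figure D2:**
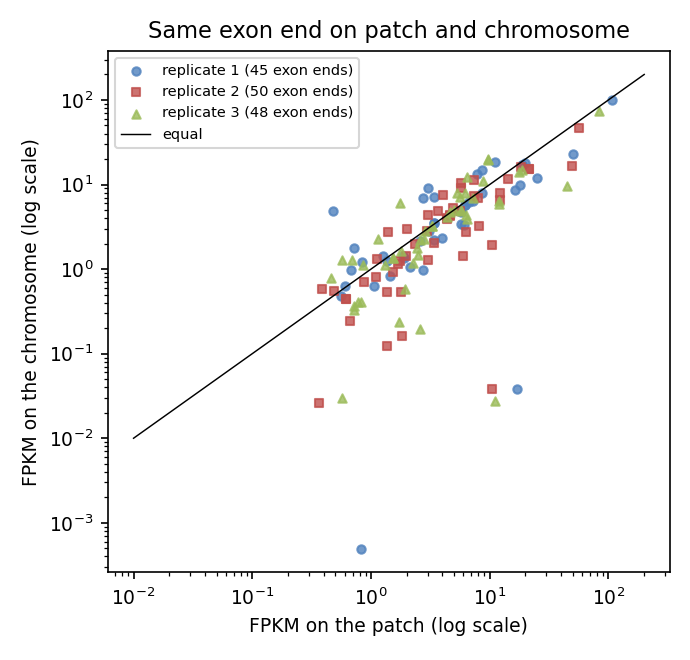
FPKM of first or last exons that share a splice site, on the assembly patch (x axis, log scale) and on the chromosome (y axis, log scale), summed over outer ends. There is 1 point per splice site and library where both copies were listed, and the line marks equal values. The 45, 50 and 48 points of the 3 libraries lie along the line, with the Mtch2 points far below it, at 10.4 to 16.8 FPKM on the patch.

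On chromosomes and scaffolds, 415 loci were placed relative to GENCODE M21 genes. No locus on them shared its identifier with an event that had a reference gene. An exon of an annotated gene on the same strand was overlapped by 74 loci (17.8%), and 7 lay within an intron on the same strand. The opposite strand of a gene was overlapped by 30, and 41 were divergent, starting within 1000 bases upstream of a gene that runs the other way. Within 5000 bases of a gene, 22 lay downstream on the same strand, 20 upstream on the same strand and 45 in another arrangement. The largest class was intergenic, with 176 loci (42.4%) more than 5000 bases from any annotated gene. Only 5.81, 6.61 and 7.43% of the first exons without a reference gene on these sequences had exactly the position of an annotated first exon, against 83.4, 83.5 and 83.8% of those with one.

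**Figure D3:**
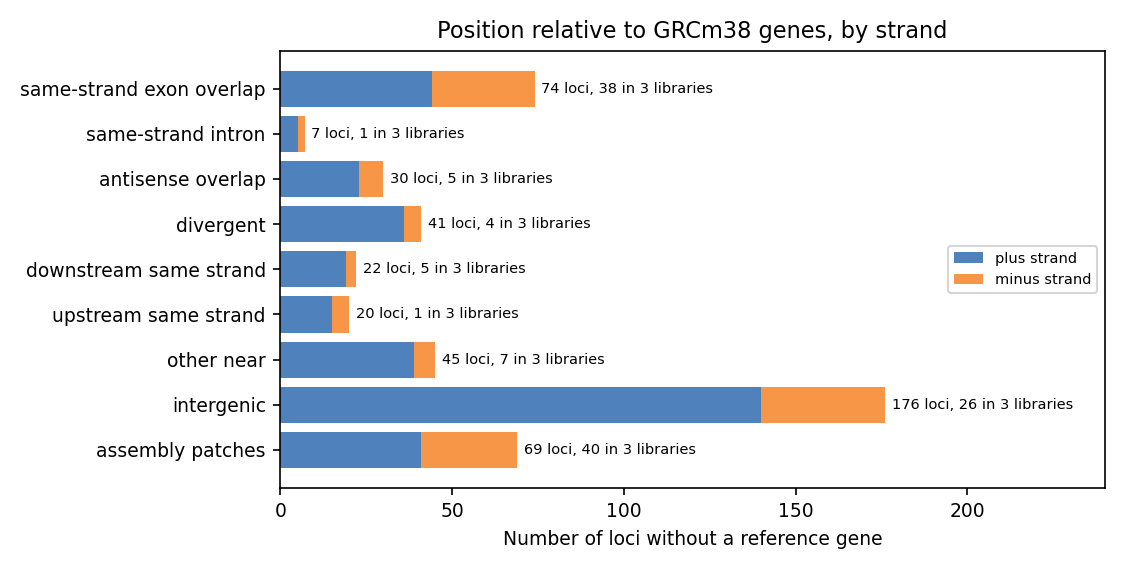
Number of loci without a reference gene (x axis) in each position class, split into the plus and the minus strand; the text beside each bar gives the number of loci and the number listed in all 3 libraries. The plus strand makes up 59.5% of loci that overlap an annotated exon and 59.4% of patch loci, and 87.8% of divergent loci.

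Loci over the exons of annotated genes were the most reproducible class on chromosomes. Of the 74, 38 (51.4%) were found in all 3 libraries and 64 used at least 1 annotated splice position, with a median mean level of 0.784 FPKM. The annotated gene was a lincRNA, a long intergenic noncoding RNA, in 40 and protein-coding in 17. XLOC_032017 on chromosome 19 (32543338 to 32565173, plus strand) overlapped the lincRNA AC102159.1, used 6 of its splice positions among 7, and had 20.8, 21.6 and 20.3 FPKM. Its first exon and its last exon varied little between libraries, with SDs of 0.044 and 0.025 on the log2(FPKM + 1) scale. XLOC_043427 on chromosome 4 (62088213 to 62102808, plus strand) overlapped Gm12909, annotated as antisense, and had 15.3, 15.9 and 17.5 FPKM; it lay within 5000 bases of Mup3, a major urinary protein gene. XLOC_025868 on chromosome 16 (86770216 to 86809001, minus strand) overlapped the lincRNA Gm32461 and had 18.5, 12.2 and 13.8 FPKM, highest in replicate 1. XLOC_025557 on chromosome 16, over the pseudogene AC169509.1, varied most, with a first exon at 0.542, 6.36 and 12.7 FPKM and an SD of 1.62 on the log2(FPKM + 1) scale.

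Several loci of this class held the structure of a protein-coding gene. XLOC_001657 on chromosome 1 (185332149 to 185349881, plus strand) had 9 splice positions, all 9 of them annotated in Bpnt1, a bisphosphate nucleotidase of sulfur metabolism, and 16.9, 22.5 and 20.01 FPKM. XLOC_023049 on chromosome 15 (67102875 to 67176778, minus strand) had 8 splice positions, all of St3gal1, a sialyltransferase, and 10.5, 13.3 and 11.5 FPKM. XLOC_061871 on chromosome 8 (3515391 to 3547281, plus strand) used 27 annotated positions of Pnpla6, a phospholipase, among 28, and had 3.56, 1.91 and 2.41 FPKM. For 14 of the 17 protein-coding genes overlapped in this way, no event was listed under the gene's own identifier. The structure matched the gene only in part at some of these, such as XLOC_040919, with 6 of 18 splice positions annotated in Tm4sf1, so the FPKM of a locus need not be that of the gene. The 3 exceptions included Sod2, the mitochondrial superoxide dismutase. Listed first exons with a reference gene that end at its annotated first-exon splice sites summed to 42.7, 37.6 and 38.7 FPKM. The overlapping locus XLOC_026941 had 1.32, 0.716 and 0.561 FPKM.

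The alternative events described here are among the highest of their types. An exon of XLOC_001657 within Bpnt1 was included at 16.8, 22.4 and 19.9 FPKM. An intron of XLOC_023049 within St3gal1 was spliced out at 10.5, 11.1 and 11.5 FPKM, and an intron of the Prodh locus on its patch was spliced out at 19.1, 14.3 and 17.0 FPKM and retained at 3.17, 0 and 1.76 FPKM. An intron of XLOC_061871 within Pnpla6 was retained at 3.35, 0 and 2.09 FPKM, and in replicate 2 the same stretch was listed at 0.643 FPKM under a variant of that event type. Events at 0 are not listed, so a 0 here stands for an event missing from the table. A stretch of several introns in the locus of Sf1, a splicing factor, on its patch was spliced out at 3.96, 8.11 and 4.52 FPKM and retained at 2.34, 1.31 and 2.89 FPKM. An exon of the antisense locus XLOC_016729 was skipped at 15.8, 1.37 and 1.06 FPKM, with the largest SD of the matched events with a mean of at least 1 FPKM, 1.69 on the log2(FPKM + 1) scale. Replicate 1 was far above the other libraries there.

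Divergent loci were close to the start of the gene they faced and low. The median distance was 114 bases, and 35 of the 41 lay within 300 bases. The gene was protein-coding for 39. From here on, a neighbouring gene's level is the summed FPKM of first exons, with a reference gene, that end at its annotated first-exon splice sites. Such a first exon was listed in at least 1 library for 35, with a median mean of 5.45 FPKM and a level above that of the locus in 33. The loci themselves had a median mean of 0.196 FPKM, with libraries where they were not listed counted as 0, and 31 of the 41 were found in 1 library alone. In all libraries there were 4, of which XLOC_034733 lay 14 bases from Slc39a13, with 0.469, 0.652 and 0.546 FPKM beside 1.74, 2.19 and 2.11 FPKM for that gene. XLOC_043383 lay 151 bases from D630039A03Rik and had 1.28, 3.27 and 1.75 FPKM, and no such first exon of that gene was listed. XLOC_070868, shown above beside Zrsr2, was not listed in replicate 1 and had 1.81 and 2.10 FPKM in replicates 2 and 3, while Zrsr2 had 2.39, 1.68 and 1.63 FPKM. XLOC_043696, named here with its values known, lay 72 bases from Prkaa2, a catalytic subunit of the energy sensor AMP-activated kinase, and had 0.793, 0 and 0.402 FPKM.

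The start windows of loci that face a gene differed in base composition from those of loci on the gene's own strand. RefSeq windows held the first-exon start of 27 loci on the opposite strand only and of 70 loci on the same strand. Loci that started in windows of both kinds, such as XLOC_070868 with Zrsr2 and Gm38561, were counted on the same strand alone. The median ratio of observed to expected CpG was 0.860 in the opposite windows, 0.296 in the same-strand windows and 0.387 over all 32544 RefSeq windows. Median GC content was 63.3% in the opposite windows, 50.3% in the same-strand windows and 53.0% over all windows. The motif GGGCGG, the core of the GC box, was present on either strand in 66.7% of opposite windows, 22.9% of same-strand windows and 35.9% of all. The motif GTTAAT, part of the site of hepatocyte nuclear factor 1, was present in 3.70% of opposite windows, 15.7% of same-strand windows and 7.13% of all. TATAAA was found in 7.41% of opposite windows, 7.14% of same-strand windows and 13.6% of all, and CCAAT in 37.0%, 52.9% and 37.4% of these sets. Same-strand starts lay at a median of 19.5 bases from the RefSeq start, and 23 of 70 lay within 10 bases. The sets also differed in their genes. Most same-strand windows belonged to genes with names that begin with Gm, and most opposite windows to other genes, such as Dip2a and P4hb. Orientation and kind of gene therefore cannot be told apart here. These shares are descriptions of the letters in the windows, were given no test, and do not show binding of any factor.

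**Figure D4:**
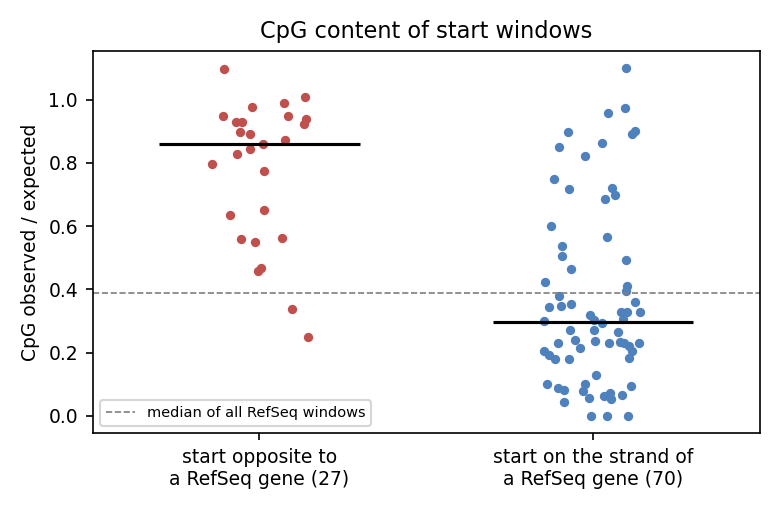
Ratio of observed to expected CpG (y axis) in the RefSeq windows that hold the start of a locus on the opposite strand only (27) or on the same strand (70), 1 point per window, with black bars at the medians and a dashed line at the median of all RefSeq windows. The opposite windows centre on 0.860 and the same-strand windows on 0.296, with overlap between the sets.

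Antisense loci overlapped a gene of the other strand, mostly at low levels with a median mean of 0.236 FPKM, and 5 of the 30 were in all libraries. The labels do not say whether the libraries kept strand, so the strand of a locus rests on what the authors' assembly assigned, and reads of a locus and of the gene opposite to it cannot be told apart. XLOC_016729 on chromosome 13 (68227504 to 68354585, plus strand), opposite to the lincRNA Gm8016, had 15.8, 11.6 and 5.54 FPKM. XLOC_066541 on chromosome 9, opposite to the lincRNA Gm36251, had 2.89, 3.85 and 2.01 FPKM. XLOC_001631 on chromosome 1 had 0.561, 1.12 and 3.51 FPKM and lay opposite to Mia3, a gene for export of large proteins from the endoplasmic reticulum, at 11.7, 13.7 and 20.6 FPKM. Locus and gene were both highest in replicate 3.

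Where a first exon of the neighbouring gene was listed as above, loci near genes without overlap were mostly lower than that gene. Overlap here means overlap with a GENCODE M21 gene. Such a first exon was listed for 11 of 22 downstream loci, 11 of 20 upstream loci and 22 of 45 in another arrangement. The gene was the higher one for 10, 11 and 18 of these. The remaining loci had no gene level to compare. XLOC_044211, 2515 bases upstream of the agmatinase gene Agmat on chromosome 4, had 2.08, 0.956 and 1.42 FPKM, beside 95.0, 95.5 and 93.6 FPKM for Agmat. XLOC_034201 had 4.02, 1.34 and 2.59 FPKM and lay 2072 bases from Hc, the gene of complement component C5, as annotated in M21. Hc had 146, 135 and 159 FPKM, and the RefSeq gene Hc overlapped XLOC_034201 on the opposite strand. XLOC_052695, 4164 bases from Nat8f2, an acetyltransferase family gene, had 2.91, 3.54 and 3.42 FPKM beside 139, 182 and 210 FPKM for Nat8f2, and an exon of it was included at 2.91, 2.96 and 2.84 FPKM, the smallest spread of the events with a mean of at least 1 FPKM. XLOC_009319, 1524 bases downstream of Lyrm9 on chromosome 11, had 2.35, 1.34 and 1.07 FPKM beside 1.19, 1.03 and 0.893 FPKM for Lyrm9, so here the locus was the higher one in each library. XLOC_009429, 4039 bases from the helicase gene Dhx40, had 1.42, 7.52 and 10.9 FPKM, and Dhx40 had 6.04, 6.71 and 5.31 FPKM. A list of 64 abundant liver genes, for plasma proteins, apolipoproteins and metabolic enzymes among others, was also examined; it does not hold Agmat, Hc or Nat8f2. Of these genes 63 were in the annotation and 2 (3.17%) had a locus within 5000 bases, beside 195 of 21938 protein-coding genes (0.889%) in all: Mup3, named above, and the gluconeogenic gene Pck1, with XLOC_035557 at 1.21, 0 and 0.618 FPKM.

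Intergenic loci lay at a median of 16279 bases from the nearest annotated gene, and the farthest at 321933 bases. Of the 176, 123 were in 1 library alone and 26 in all 3. XLOC_053058 on chromosome 6 (122257474 to 122263996, plus strand) was the highest of them, with 12.1, 13.8 and 10.2 FPKM. It lay 6600 bases from Klrg1, a receptor of natural killer and T cells, of which no first exon was listed as defined above. No RefSeq gene lay over XLOC_053058. XLOC_063067 on chromosome 8, 12640 bases from Klhl36, had 7.22, 4.48 and 4.46 FPKM. XLOC_053043 on chromosome 6 had 2.67, 7.99 and 3.71 FPKM. It lay over the RefSeq gene Gm30842 and overlapped the RefSeq gene Mical3 on the opposite strand. Over all loci on chromosomes without an annotated M21 gene on the same strand, 122 of 330 (37.0%) had a RefSeq gene there on the same strand. The share was 24 of 48 among those in all 3 libraries and 74 of 234 (31.6%) among those in 1 library.

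Positions were shared less often between libraries than those of events with a reference gene. Of the 1511 positions, 381 (25.2%) were listed in all 3 libraries and 880 (58.2%) in 1 alone, against 55272 of 88332 (62.6%) and 20231 (22.9%) with a reference gene. For first exons the shares in all libraries were 20.1% without and 63.2% with a reference gene, and for last exons 20.6% and 72.1%. Within each library, the share of first exons found in all libraries was lower by 39.8 ± 5.44 percentage points without a reference gene (SD, n = 3; exact two-sided sign-flip permutation p = 0.25, the smallest that 3 libraries allow). By locus, 127 of 484 were in all 3 libraries, with 40 of 69 (58.0%) on patches and 87 of 411 (21.2%) on chromosomes, and 100, 98 and 81 were in replicates 1, 2 and 3 alone.

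The difference in sharing was largest in the lowest range of levels and smallest in the highest, for first and for last exons. For first exons whose highest value was under 0.5 FPKM, 2.75% of those without and 45.2% of those with a reference gene were in all libraries. At 0.5 to 1 FPKM the shares were 3.35% and 32.9%, at 1 to 2 FPKM 26.9% and 55.5%, at 2 to 5 FPKM 63.5% and 77.9%, and at 5 FPKM or more 86.4% and 93.2%. Last exons without and with a reference gene showed 0.649% and 44.3% under 0.5 FPKM, 4.79% and 38.4% at 0.5 to 1 FPKM, 43.7% and 73.1% at 1 to 2 FPKM, 55.3% and 91.8% at 2 to 5 FPKM and 86.5% and 97.8% at 5 FPKM or more. For last exons the narrowing was not steady, since the gap at 2 to 5 FPKM was wider than at 1 to 2 FPKM. The tables hold no read counts, so depth is unknown and a position missing from a library may have been below detection in it.

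**Figure D5:**
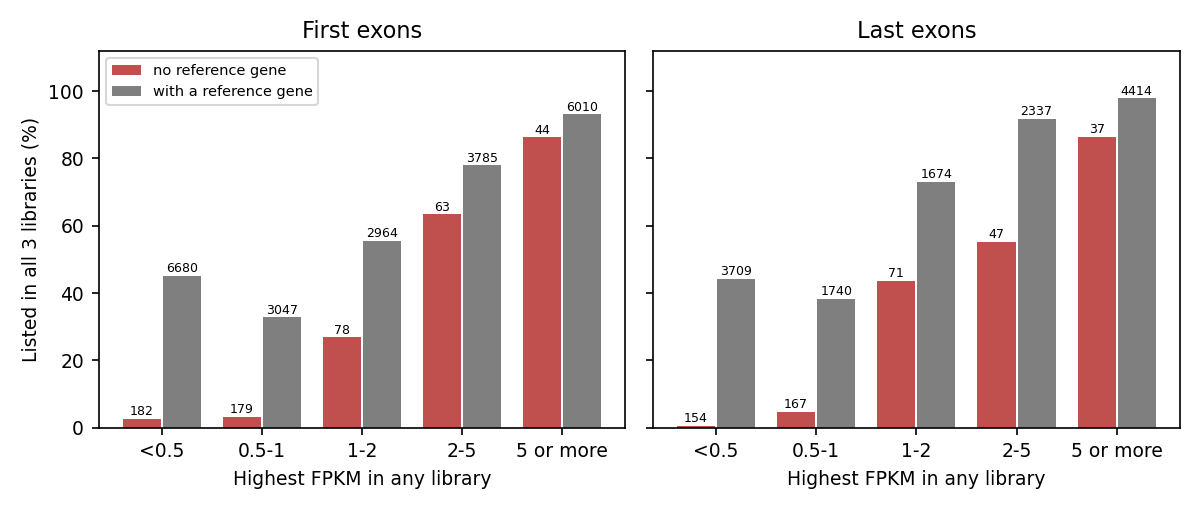
Share of first exons (left) and last exons (right) listed in all 3 libraries (y axis), by the highest FPKM in any library (x axis), for events without and with a reference gene; the number over each bar is the number of positions. At 5 FPKM or more the shares are 86.4% and 93.2% for first exons, and under 0.5 FPKM they are 2.75% and 45.2%.

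Levels were low. First exons without a reference gene had medians of 0.808, 0.750 and 0.789 FPKM in replicates 1, 2 and 3, against 1.45, 1.40 and 1.41 FPKM with one. Last exons had 0.813, 0.710 and 0.866 FPKM, against 2.16, 2.05 and 2.06 FPKM. On the log2(FPKM + 1) scale the medians differed by -0.44 ± 0.012 for first exons and -0.78 ± 0.062 for last exons (SD, n = 3; exact two-sided sign-flip permutation p = 0.25 for each). Other event types differed by -0.12 ± 0.17 (exact permutation p = 0.50), which is within the spread between libraries. Among events matched in all 3 libraries, the median SD between libraries was 0.33 for first exons, 0.29 for last exons and 0.38 for other types, against 0.22, 0.19 and 0.27 for events with a reference gene.

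Some high values were listed in 1 library alone. XLOC_069207, on a patch that could not be placed on a chromosome, had 605.9 FPKM for its first and last exon in replicate 2 and was not listed in replicates 1 and 3. All events without a reference gene made up 0.228, 0.347 and 0.222% of the summed FPKM, and without XLOC_069207 the share in replicate 2 was 0.228%. The highest unshared events of replicate 1 were a first exon of 6.87 FPKM at XLOC_069255 and a last exon of 6.21 FPKM at XLOC_034519, and in replicate 3 an alternative exon end of 8.62 FPKM at XLOC_043427.

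Loci lay on the plus strand far more often than on the minus strand. On chromosomes 318 of 411 (77.4%) were on the plus strand, against 54.1% of 12834 loci with a reference gene. By event, 65.5, 66.2 and 65.6% were on the plus strand in replicates 1, 2 and 3, against 53.2, 53.3 and 53.2%, a difference of 12.6 ± 0.286 percentage points (SD, n = 3; exact two-sided sign-flip permutation p = 0.25). The share was 81.2% among the 346 loci without an annotated splice position and 56.9% among the 65 with one. It was 82.1% among the 340 loci with only first and last exon events and 54.9% among the 71 with other event types, and 80.6, 75 and 69.0% among loci on chromosomes and scaffolds in 1, 2 and 3 libraries. How the assembly assigned strand was not tested.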

How the data were processed

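RNA was sequenced from 3 liver libraries, numbered as in the labels. The FPKM values were computed by the authors and deposited as 1 table per library, per the file headers. Tools listed in the submitters' processing notes, with no role stated, are HISAT2 2.0.1 (an aligner), HTSeq 0.6.1, cutadapt 1.9.1 and DESeq2, beside the build mm9. No source used here names the program that wrote the tables. Positions were read as GRCm38, because 83.4 to 83.8% of first exons with a reference gene matched a GENCODE M21 first exon exactly whereas positions moved by 1000 bases matched in 0.0057% or fewer.

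Identical rows were dropped (34, 30 and 33 without a reference gene), and events were matched by chromosome, strand, type, start and end; of several patterns at 1 position the highest FPKM was kept. Logs are log2(FPKM + 1). Differences between events without and with a reference gene were taken within each library and tested by exact two-sided sign-flip permutation over 3 libraries. Neighbouring genes have the summed FPKM of first exons with a reference gene that end at an annotated first-exon splice site of theirs. Other events of these genes were not used for that level. The loci named are the highest 15 with a matched event, the highest 3 of each position class, the highest 2 events of each type, the highest 2 unshared events of each library and the 3 most and least variable events; further ones are said to have been chosen after their values were seen. Names beyond that rule (XLOC_026941, XLOC_069176, XLOC_070868 and the patch genes outside the highest 15 loci) also followed their values. Position classes and the placing of patches were checked on simulated data, and the separate shifts of single loci were not. The loci and lists were chosen with earlier results of these data known. Python 3.11.15 with pandas 2.3.3 and numpy 2.4.6 was used. Some loci that the naming rule would give are not reported here. No genome sequence was used, so splice dinucleotides and repeats were not analysed here.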

Additional observations from a re-analysis of the deposited data

How the results depend on the processing

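No paired analysis was possible because all libraries belong to 1 group. Of 62 alternative values, 50 stayed within 1.5 times the reported count, or within 1 SD of the reported level. Some of the 50 could not move. The counts of 74 exon overlap, 30 antisense and 41 divergent loci do not use the distance that defines a nearby gene. Changing it to 1000 or 10000 bases therefore left them the same. The mean number of events per library, 872, was 441 at 1 FPKM or more and 530 for first and last exons alone, and between 849 and 910.5 with a replicate left out. The 381 positions in all libraries became 224 at 1 FPKM or more, and 447 to 479 were shared by both remaining libraries. The median level of 1.03 on the log2(FPKM + 1) scale was 1.83 at 1 FPKM or more, 0.83 for first and last exons alone and 0.18 with a pseudocount of 0.1. The median spread of 0.36 was 0.23 to 0.28 with a replicate left out. Exon overlap fell to 20 loci, against 74, with protein-coding genes alone. Downstream loci numbered 2 within 1000 bases and 46 within 10000 bases, against 22 within 5000, and 14 to 20 with a replicate left out. The 41 divergent loci became 26 to 33 with a replicate left out. Without replicate 2 they numbered 26, and without replicate 1 downstream loci numbered 14. Alternatives based on soft-masked sequence were not run, as no genome sequence was used. The lack of read counts and the single group limit every comparison between libraries.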

Other observations

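Loci without a reference gene were unevenly spread over chromosomes. Relative to the number of annotated genes, chromosome 15 had 37 loci, or 19.99 per 1000 genes, chromosome 19 had 15.8 and chromosome 16 had 14.3, against 4.03 on chromosome 7, 2.68 on chromosome X and 0.637, from 1 locus, on chromosome Y. In 6 pairs, such loci overlapped on opposite strands or started away from each other within 1000 bases. On chromosome 11, XLOC_009429 on the plus strand had 1.42, 7.52 and 10.9 FPKM, and XLOC_010948 on the minus strand had 0, 6.77 and 0 FPKM. Of the 476 last exons without a reference gene, 6 coincided with an annotated last exon, and 3 of these held a polyadenylation signal (AATAAA or ATTAAA) in their last 50 bases, against 6749 of 11291 (59.8%) annotated last exons with a reference gene.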
